A study of Mus musculus with 6 samples.

Results

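The 10 genes described here are the interleukin-1 (IL-1) family genes Il1a, Il1b, Il1rn, Il1r1, Il1rl1 and Il33, the tumour necrosis factor gene Tnf with its receptor gene Tnfrsf1b, the interleukin-6 gene Il6, and the serum amyloid gene Saa3. They were taken by name, not by their values, and all 10 were found among the 31384 genes of the count table. The samples were 6 RNA libraries of a mouse spermatogonial stem cell line kept on mitomycin C treated embryonic fibroblasts, 2 libraries per group. Every group had EGF (10 ng/mL), FGF2 (10 ng/mL) and LIF in its medium and was collected after 18 days. The LOVA group had 5 µM lovastatin, a statin that blocks an early step of cholesterol synthesis, and no GDNF. The NTC group had neither GDNF nor lovastatin. The PTC group had 10 ng/mL GDNF, the growth factor on which self-renewal of these stem cells depends. The labels name 1 cell line and neither describe the libraries of a group as separate cultures nor mention a removal of feeder cells before collection, so p-values measure only the spread between these libraries. The letters A and B tell the libraries of a group apart in the count table.

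IL-1α (Il1a) and IL-1β (Il1b) are inflammatory ligands that bind the receptor IL-1R1 (Il1r1). The receptor antagonist (Il1rn) occupies that receptor without activating it. IL-33 (Il33) is a nuclear cytokine, released from damaged stromal and epithelial cells, that binds the receptor ST2 (Il1rl1). TNF acts through a pair of receptors, of which Tnfrsf1b encodes TNFR2. IL-1 and TNF both activate the transcription factor NF-kB, and IL-6 and the acute-phase protein SAA3 are among the products that such signals induce in macrophages and fibroblasts. In a culture of germ cells on fibroblasts, RNA of these genes can come from any cell in the dish.

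Coordinates are in the mouse build mm10 (GRCm38) with GENCODE M21. Chromosome 2 holds Il1rn (ENSMUSG00000026981, 24336853 to 24351494), Il1a (ENSMUSG00000027399, 129299610 to 129309972) and Il1b (ENSMUSG00000027398, 129364570 to 129371139), the last pair lying 54598 bases apart on the minus strand. Chromosome 1 holds Il1r1 (ENSMUSG00000026072, 40225080 to 40317257) and Il1rl1 (ENSMUSG00000026069, 40429570 to 40465415), which are 112313 bases apart. Tnf (ENSMUSG00000024401) lies on chromosome 17 from 35199381 to 35202007, Tnfrsf1b (ENSMUSG00000028599) on chromosome 4 from 145213463 to 145246870, and Il6 (ENSMUSG00000025746) on chromosome 5 from 30013114 to 30019981. Saa3 (ENSMUSG00000040026) lies on chromosome 7 from 46711998 to 46715700 and Il33 (ENSMUSG00000024810) on chromosome 19 from 29925114 to 29960718. All are protein-coding. Il1a and Il1b overlap annotated transcripts on the opposite strand. The partner of Il1a (Gm14023) had between 1 and 6 counts per library and that of Il1b (Il1bos) had 0 in every library. Il1r1 overlaps the annotated Gm38070 on its own strand, for which no value was used here. The close paralogs of Saa3 could share its reads, and Saa1 had at most 11 counts in a library and Saa2 at most 4.

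The DNA just upstream of the start sites is shown for some ligand genes, Il1a, Il1b, Tnf and Il6, and for the acute-phase gene Saa3. The ligand gene Il33 is not among those shown. It comes from RefSeq on GRCm38.p6, 5′ to 3′ on the gene's strand, 150 bases up to the RefSeq start site. For Saa3, whose GENCODE start lies 24 bases upstream of the RefSeq one, it is the 126 bases that precede the GENCODE start, and distances are still counted from the RefSeq start. Capitals mark matches to the motifs searched.
Il1a, upstream of the start, chr2:129309973-129310122, minus strand: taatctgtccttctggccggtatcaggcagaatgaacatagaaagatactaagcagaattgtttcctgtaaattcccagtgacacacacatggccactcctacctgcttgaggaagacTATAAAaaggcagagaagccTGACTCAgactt
Il1b, upstream of the start, chr2:129371140-129371289, minus strand: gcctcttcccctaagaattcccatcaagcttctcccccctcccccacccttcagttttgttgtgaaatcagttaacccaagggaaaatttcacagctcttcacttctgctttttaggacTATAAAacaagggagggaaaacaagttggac
Tnf, upstream of the start, chr17:35202008-35202157, minus strand: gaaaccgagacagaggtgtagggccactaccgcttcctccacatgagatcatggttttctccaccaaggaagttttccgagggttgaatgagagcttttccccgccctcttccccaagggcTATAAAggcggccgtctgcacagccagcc
Il6, upstream of the start, chr5:30012964-30013113, plus strand: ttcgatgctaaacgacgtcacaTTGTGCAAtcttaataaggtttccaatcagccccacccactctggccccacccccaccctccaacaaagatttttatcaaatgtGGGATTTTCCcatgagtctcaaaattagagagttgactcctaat
Saa3, upstream of the start, chr7:46715701-46715826, minus strand: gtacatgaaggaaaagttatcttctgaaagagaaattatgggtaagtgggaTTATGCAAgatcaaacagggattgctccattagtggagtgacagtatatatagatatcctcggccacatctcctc
The motifs, searched on both strands in the 250 bases before each RefSeq start site, were the NF-kB consensus, C/EBP (TTGCNNAA), AP-1 (TGA and TCA around any single base), STAT (TTCNNNGAA) and the TATA box (TATAAA). The TATA box lay 32, 31 and 29 bases before the start of Il1a, Il1b and Tnf. Of the 32851 promoters of the RefSeq table, 12.4% held TATAAA anywhere in the 250 bases, whatever its distance. Il6 held a match to the NF-kB consensus 44 bases before its start (7.25% of all promoters), a C/EBP match at 128 bases (9.56%) and, beyond the stretch shown, an AP-1 match at 249 bases (6.75%). Saa3 held a C/EBP match at 99 bases and Il1a an AP-1 match at 12 bases. Of the genes not shown, Il1rn held an AP-1 match at 141 bases, and Il1r1 and Il1rl1 held C/EBP matches at 133 and 34 bases. Il33 held the letters TATAAA at 203 bases, and Tnfrsf1b a STAT match at 181 bases (7.02% of all promoters). The only other match to the NF-kB consensus among the 10 genes lay 232 bases before a second start site of Il1r1. A second start site of Il33 had a TATA box at 29 bases and a C/EBP match at 85 bases. An absent match says only that these letters are not in the window.

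Total counts per library were between 12454671 and 22668087, and 3 counts corresponded to 0.128 to 0.258 CPM, depending on the library. Levels are given as CPM, the counts of a gene relative to the library total after TMM scaling. A list of 12 macrophage markers, all detected in every library, took 0.0438% and 0.0527% of the counts of the LOVA libraries (A, then B, here and below), 0.202% and 0.253% of the NTC counts, and 0.0302% and 0.0258% of the PTC counts. A list of 12 feeder fibroblast markers, also all detected, took 1.01% and 1.94% in LOVA, 1.16% and 1.91% in NTC, and 0.0845% and 0.403% in PTC. Against PTC, 7 of them were called higher in LOVA (19.8% of all genes tested) and 7 in NTC (21.5% of all genes tested). The 19 pan-germ-cell genes took 0.361% and 0.199% in LOVA, 0.308% and 0.201% in NTC, and 0.527% and 0.532% in PTC, and all 19 were detected in every library. The feeder share was larger in library B than in A of each group. Mast cell markers (8 to 55 counts per library for 7 genes, with Fcer1a, Mcpt4 and Tpsb2 at 0 throughout), T cell and innate lymphoid markers (38 to 81 counts for 7 genes) and neutrophil markers (19 to 108 counts for 7 genes) were low. Because these are bulk samples, fewer cells of a type and less RNA per cell cannot be told apart for any gene below.

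**Figure D1:**
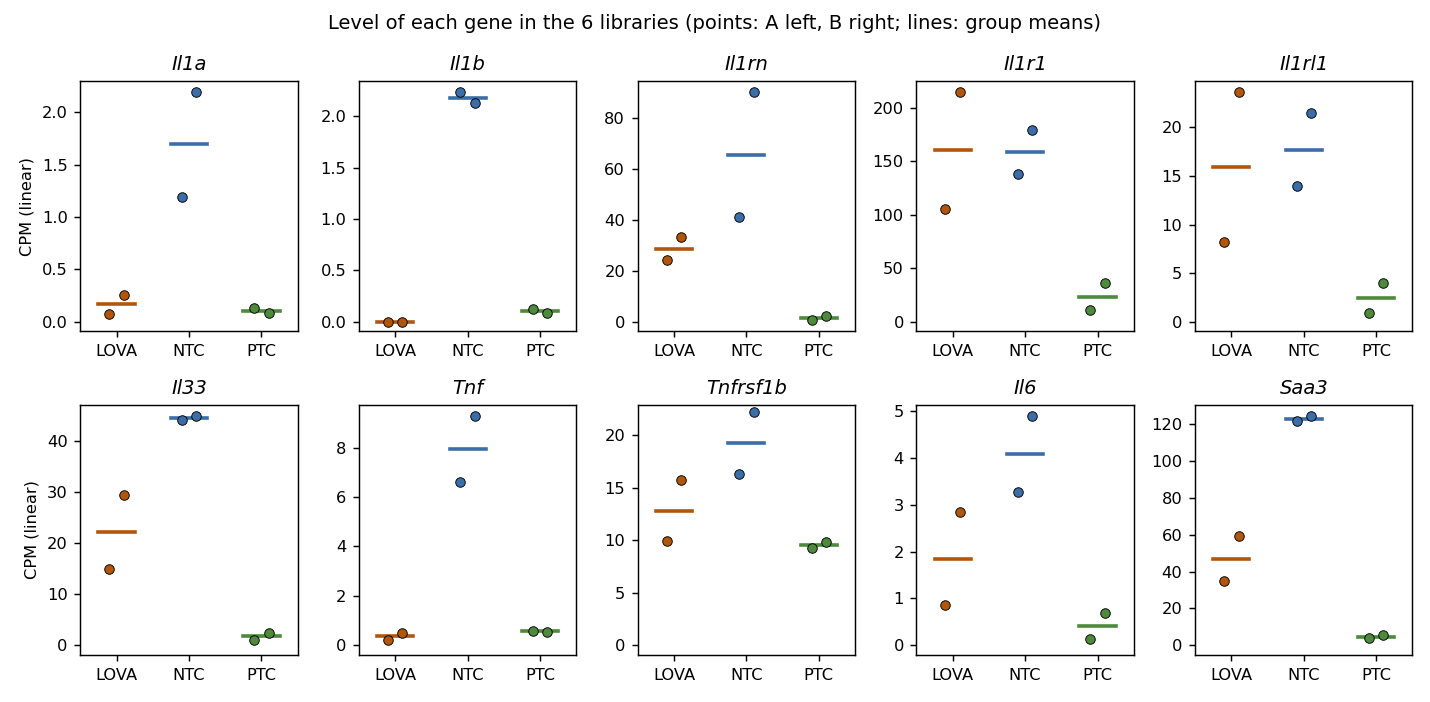
Level of each of the 10 genes in CPM on linear axes that differ between panels, with 1 point per library (A left, B right) and a line at the group mean. Both NTC points lie above both PTC points in every panel, which was so for 39% of all genes tested. Il1a, Il1b and Tnf are near 0 in LOVA and PTC, and for them the filter fixed that NTC stood above the other groups.

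Leaving GDNF out, without lovastatin, was accompanied by higher RNA of every gene of the set. All 10 rose in NTC against PTC, from 2.03-fold for Tnfrsf1b to 42.4-fold for Il1rn, in edgeR's quasi-likelihood test at a Benjamini-Hochberg adjusted p under 0.05. Over all 16121 genes tested, 21.5% were called higher and 12.9% lower in this comparison. Il1a, Il1b and Tnf entered the test only through the NTC libraries, where they reach the required counts, so the height of NTC over the other groups was fixed for them by the filter and they are left out of the counts that follow. Of the 7 other genes, 7 were called higher, and in 7 both NTC libraries lay above both PTC libraries, which was so for 39% of all genes tested. Scaling to pan-germ-cell counts in place of TMM shifted the median log2 fold change over all genes by 0.99 and turned the 3472 higher and 2086 lower calls into 4955 and 42. These 7 genes were still called higher.

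The calls of NTC against PTC leaned on single libraries. With NTC B left out, the lone NTC library being assumed to vary like the other groups, none of the 10 was called, with log2 fold changes between 0.78 (Tnfrsf1b) and 4.74 (Il1rn) and adjusted p between 0.0562 and 0.26, and 1 gene was called among all those tested. Without NTC A, calls were lost by Il1b (adjusted p = 0.0554), Il1r1 (0.0513), Il1rl1 (0.0708), Tnfrsf1b (0.07) and Il6 (0.0551). Without PTC A they were lost by Il1a (0.0987), Il1b (0.0793), Il1rl1 (0.0885), Tnfrsf1b (0.183) and Il6 (0.106), and without PTC B by Il1a (0.109), Il1b (0.0807) and Tnfrsf1b (0.142). Il1r1 also lost its call without LOVA A (0.0751), without LOVA B (0.0743) or in a fit of these 2 groups alone (0.0607). Leaving out PTC B raised the fold change by over 1.5 times, to log2 values of 6.43 for Il1rn, 5.29 for Il33, 4.93 for Il6, 4.32 for Il1rl1 and 3.85 for Il1r1, and leaving out PTC A lowered it as much, to 2.57 for Il6, 2.15 for Il1r1 and 2.14 for Il1rl1.

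Il1rn, Il33, Tnfrsf1b, Il6 and Saa3 stood lower in both LOVA libraries than in both NTC libraries, while Il1r1 and Il1rl1 overlapped between these groups. None of the differences passed the test. In LOVA against NTC the edgeR fit called 0 of the 10 genes, and 0% of all genes tested were called lower. At an unadjusted p under 0.05, 561 genes differed in either direction, and of the 7 genes that pass the filter without NTC 3 were lower (Il1rn, Il33 and Saa3), against 2.13% of all genes tested. Both LOVA libraries lay below both NTC libraries in 5 of these 7 (Il1rn, Il33, Tnfrsf1b, Il6 and Saa3), which was so for 13% of all genes tested. Il1a, Il1b and Tnf also lay below NTC, which for them follows from the filter. DESeq2 called 108 genes in this comparison, among them Tnf (adjusted p = 7.04e-07), Il1b (0.00869) and Saa3 (0.0154) as lower.

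Il1rn, Il33, Saa3, Il1r1 and Il1rl1 rose in LOVA against PTC, from 6.31-fold for Il1rl1 to 18.5-fold for Il1rn, where 19.8% of all genes tested were called higher and 10.8% lower. Scaling to pan-germ-cell counts shifted the median over all genes by 0.91 here and gave 4103 higher and 34 lower calls in place of 3192 and 1747, with the same 5 genes called. Il6, Tnfrsf1b, Il1a, Il1b and Tnf were not called. Both LOVA libraries lay above both PTC libraries in 7 genes (these 5, Il6 and Tnfrsf1b), against 38.4% of all genes tested. Without LOVA B, Il1rn (adjusted p = 0.0763), Il1r1 (0.219) and Il1rl1 (0.25) lost their calls, and so did Il1r1 without LOVA A (0.0696) or NTC B (0.0518). Il1rl1 also lost its call without NTC A (0.0759), NTC B (0.08), PTC A (0.114) or the whole NTC group (0.0715). The fold change moved by over 1.5 times without PTC B, to log2 values of 5.23 for Il1rn, 4.28 for Il33, 4.16 for Il1rl1 and 3.86 for Il1r1. It did so too without LOVA B (2.17 for Il1r1 and 1.70 for Il1rl1) and without PTC A (2.16 for Il1r1 and 1.98 for Il1rl1). Il6 was called higher without LOVA A (log2 fold change 2.69, adjusted p = 0.0363) and with no filter on low counts (2.03, adjusted p = 0.00996). It was not called without LOVA B (0.98, adjusted p = 0.509), PTC A (1.41, adjusted p = 0.312) or PTC B (3.77, adjusted p = 0.0733). This comparison shares its libraries with the other comparisons, so the 3 sets of values are not independent.

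**Figure D2:**
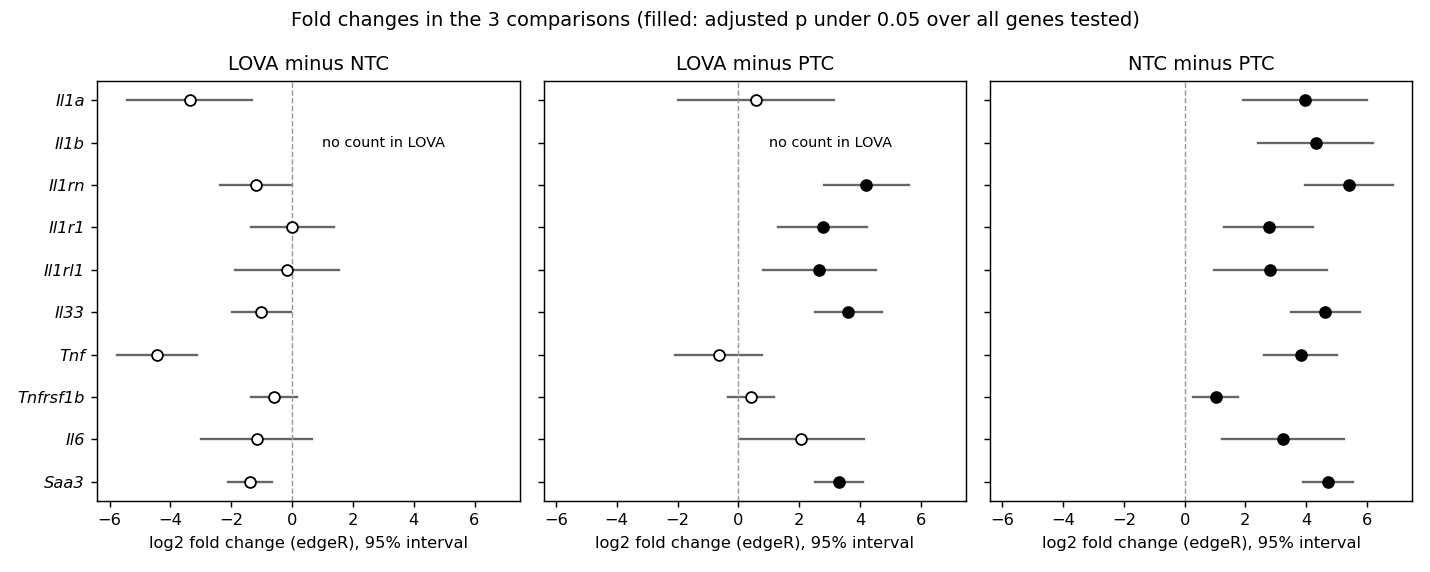
Log2 fold change of each gene in the 3 comparisons from the edgeR fit, with 95% intervals and filled points where the adjusted p over all genes tested was under 0.05. All 10 points are filled in NTC minus PTC, 5 in LOVA minus PTC and 0 in LOVA minus NTC, and Il1b is left out where LOVA had no count. Of all genes tested, 21.5% were called higher in NTC minus PTC and 19.8% in LOVA minus PTC. For Il1a, Il1b and Tnf the filter fixed that NTC stood above the other groups.

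The ligands Il1a and Il1b had low counts. Both passed the filter only through the NTC libraries, so the height of NTC over the other groups was fixed for them. Il1b had 0 and 0 counts in LOVA, 28 and 33 in NTC, and 2 and 2 in PTC. The NTC libraries stood alone, and LOVA had no count where PTC had 4. Summed over each group, Il1b was at least 18.3-fold lower in LOVA than in NTC against a floor of 3 counts over the LOVA group, and no fold is given between LOVA and PTC, since the floor of 3 set against 4 counts bounds nothing. In NTC against PTC, with 61 against 4 counts, Il1b was called higher (adjusted p = 0.0147, edgeR), and the fitted log2 fold change of 4.30 (SE 0.77) rests on those 4 counts.

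Il1a had 1 and 3 counts in LOVA, 15 and 34 in NTC, and 2 and 2 in PTC. LOVA and PTC overlapped, and both NTC libraries stood above them, which follows from the filter. The log2 fold change of Il1a was 3.95 in NTC against PTC (SE 0.86, adjusted p = 0.0185), -3.36 in LOVA against NTC (SE 0.87, adjusted p = 0.666) and 0.59 in LOVA against PTC (SE 1.08, adjusted p = 0.691). The last 95% interval ran from -1.97 to 3.15, so depth does not settle whether LOVA and PTC differ.

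Il33 was far more abundant. It stood at 14.96 and 29.5 CPM in LOVA, 44.1 and 44.9 CPM in NTC, and 1.13 and 2.39 CPM in PTC. The groups did not overlap, with LOVA between NTC and PTC. Il33 rose in NTC against PTC (log2 fold change 4.62, SE 0.48, adjusted p = 0.00795) and in LOVA against PTC (3.62, SE 0.47, adjusted p = 0.0167), and LOVA minus NTC was -1.01 (SE 0.40, adjusted p = 1, unadjusted p = 0.0420).

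The antagonist Il1rn had the largest rise of the 10 genes in NTC against PTC. It was at 24.1 and 33.3 CPM in LOVA, 41.1 and 90.1 CPM in NTC, and 0.753 and 2.22 CPM in PTC. All 3 groups were apart, although the NTC libraries themselves were far from each other. The log2 fold change was 5.41 in NTC against PTC (SE 0.61, adjusted p = 0.00859), 4.21 in LOVA against PTC (SE 0.59, adjusted p = 0.0167) and -1.19 in LOVA against NTC (SE 0.49, adjusted p = 1). Without NTC B the last value was -0.52.

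Per kilobase of exon, the antagonist exceeded the ligands in every library in which both were counted. The level of Il1rn per kilobase was 121 and 46.0 times that of Il1a in LOVA, 12.3 and 14.7 times in NTC, and 2.14 and 9.27 times in PTC. Against Il1b the ratio was 6.35 and 14.6 in NTC and 2.07 and 8.96 in PTC, with no ratio in LOVA, where Il1b had no count. The LOVA and PTC ratios rest on 1 to 3 counts of a ligand per library.

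The receptor genes Il1r1 and Il1rl1 were high in LOVA and NTC alike. Il1r1 was at 106 and 215 CPM in LOVA, 138 and 179 CPM in NTC, and 10.97 and 35.7 CPM in PTC. The LOVA libraries enclosed the NTC libraries, and both groups were above PTC. Il1r1 rose in NTC against PTC (log2 fold change 2.76, SE 0.61, adjusted p = 0.0211) and in LOVA against PTC (2.77, SE 0.61, adjusted p = 0.0245). LOVA minus NTC was 0.01, with a 95% interval from -1.36 to 1.38, which leaves room for a change of more than 2-fold in either direction, and its sign turned under several alternatives.

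Il1rl1, the receptor of IL-33, was at 8.19 and 23.6 CPM in LOVA, 13.9 and 21.5 CPM in NTC, and 0.878 and 4.01 CPM in PTC. LOVA again enclosed NTC. Il1rl1 rose in NTC against PTC (2.82, SE 0.78, adjusted p = 0.0347) and in LOVA against PTC (2.66, SE 0.77, adjusted p = 0.0440), and LOVA minus NTC was -0.16 (95% interval -1.87 to 1.55). Per kilobase of exon Il1r1 stood 9.05 to 14.0 times above Il1rl1 in the 6 libraries.

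Tnf had 3 and 6 counts in LOVA, 83 and 144 counts in NTC, and 9 and 13 counts in PTC. In CPM this was 0.214 and 0.516 in LOVA, 6.61 and 9.29 in NTC, and 0.564 and 0.554 in PTC. Only the NTC libraries were well above the floor, and those of LOVA lay just below those of PTC. Tnf entered the test only through the NTC libraries, so the filter fixed that NTC stood above the other groups. Tnf rose in NTC against PTC (log2 fold change 3.81, SE 0.51, adjusted p = 0.00870). It was 21.9-fold lower in LOVA than in NTC (-4.45, SE 0.55, 95% interval -5.77 to -3.14), the lowest adjusted p of the set in that comparison at 0.0855. Over the 14 alternatives that adjusted p ranged from 2.53e-09 to 1, and 3 of them called the gene. LOVA minus PTC was -0.64 (SE 0.60, adjusted p = 0.432) and turned to 0.28 under scaling to pan-germ-cell counts.

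Tnfrsf1b, which encodes TNFR2, had the smallest fold change of the 10 genes in NTC against PTC. Its levels were 9.90 and 15.7 CPM in LOVA, 16.3 and 22.2 CPM in NTC, and 9.22 and 9.80 CPM in PTC. NTC was above both other groups, and LOVA A lay just above PTC. It rose in NTC against PTC (1.02, SE 0.32, adjusted p = 0.0456), while LOVA minus NTC was -0.59 (SE 0.32, adjusted p = 1) and LOVA minus PTC 0.43 (SE 0.32, adjusted p = 0.321).

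Il6 had 12 and 33 counts in LOVA, 41 and 76 in NTC, and 2 and 16 in PTC. The groups did not overlap in CPM, at 0.855 and 2.84 in LOVA, 3.27 and 4.90 in NTC, and 0.125 and 0.682 in PTC. In each group the B library was the higher of the pair. Il6 rose in NTC against PTC (3.23, SE 0.85, adjusted p = 0.0290). LOVA minus PTC was 2.07 (SE 0.86, adjusted p = 0.104) and LOVA minus NTC -1.16 (SE 0.77, adjusted p = 1).

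Saa3 was the most abundant of the 10 genes per kilobase of exon in NTC. It stood at 34.9 and 59.1 CPM in LOVA, 122 and 125 CPM in NTC, and 3.70 and 5.63 CPM in PTC, with means of 47.0 ± 17.1, 123 ± 2.06 and 4.66 ± 1.36 CPM (SD, n = 2 per group). The 3 groups were apart. Saa3 rose 26.2-fold in NTC against PTC (log2 fold change 4.71, SE 0.35, adjusted p = 0.00795) and 9.97-fold in LOVA against PTC (3.32, SE 0.33, adjusted p = 0.0167). In LOVA it was 2.62-fold lower than in NTC (-1.39, SE 0.30, 95% interval -2.11 to -0.68, adjusted p = 0.439), and the adjusted p of that difference ranged from 2.25e-05 to 1 over 14 alternatives, of which 3 called it.

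Set side by side per kilobase of exon, the mean NTC levels ran from 47.2 CPM per kilobase for Saa3 through 24.9 for Il1r1, 15.4 for Il33, 11.9 for Il1rn, 5.05 for Tnfrsf1b, 4.85 for Tnf, 2.57 for Il1rl1, 1.68 for Il6 and 1.14 for Il1b to 0.858 for Il1a. The NTC libraries overlapped between Il33 and Il1rn and between Tnfrsf1b and Tnf. Il1rl1 and Il6 came within their spread of each other (lowest 2.02 and highest 2.02), and so did Il1b and Il1a (lowest 1.12 and highest 1.11), so the order of these neighbours is not settled by 2 libraries. Exon length here is the union of all annotated exons.

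Because feeder and macrophage marker shares also differed between the groups, the counts of each gene were set against the counts of those marker lists in the same library. Il1r1 had 10.7 and 10.3 counts per 1000 feeder marker counts in LOVA, 12.001 and 8.77 in NTC, and 13.8 and 9.17 in PTC. Il1rl1 had 0.831 and 1.14 in LOVA, 1.21 and 1.05 in NTC, and 1.11 and 1.03 in PTC. For both receptors the groups overlapped on this scale, across which CPM had differed. Il6, at far fewer counts, had 0.0867 and 0.137 in LOVA, 0.284 and 0.240 in NTC, and 0.158 and 0.175 in PTC. Its groups were apart on this scale, with LOVA below PTC, while in CPM LOVA lay between PTC and NTC. The part of feeder content in these differences was not tested.

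Il1rn, Saa3 and Il33 did not keep such a ratio either. Il1rn had 2.45 and 1.60 counts per 1000 feeder marker counts in LOVA, 3.57 and 4.41 in NTC, and 0.947 and 0.570 in PTC, so the groups stayed apart. Saa3 had 3.54 and 2.85 in LOVA, 10.6 and 6.09 in NTC, and 4.66 and 1.45 in PTC, with both NTC libraries above the others and LOVA inside the range of PTC. Il33 had 1.52 and 1.42 in LOVA, 3.83 and 2.20 in NTC, and 1.42 and 0.613 in PTC. The NTC libraries were thus the highest for all 3 genes on this scale too. Per 1000 macrophage marker counts both LOVA libraries lay above both NTC libraries instead. Il1rn had 56.6 and 58.9 in LOVA against 20.5 and 33.3 in NTC, and Saa3 81.8 and 104.5 against 60.7 and 46.1. Il33 had 35.1 and 52.2 against 22.0 and 16.6.

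Tnf and Il1b were set against the macrophage markers, which rose in NTC as well. All 12 of these markers were called higher in NTC than in PTC (21.5% of all genes tested), with a median log2 fold change of 2.81. In LOVA against PTC 2 were called higher (19.8% of all genes tested), with a median of 0.65. In LOVA against NTC 0 were called lower (0% of all genes tested), with a median of -2.29. Tnf had 0.501 and 0.913 counts per 1000 macrophage marker counts in LOVA, 3.30 and 3.43 in NTC, and 1.99 and 2.22 in PTC. The groups were apart on this scale, with LOVA the lowest, but the LOVA values rest on 3 and 6 counts of Tnf. Those of PTC rest on 9 and 13 counts. Per 1000 feeder marker counts NTC and PTC overlapped for Tnf, at 0.574 and 0.454 in NTC and 0.710 and 0.142 in PTC. LOVA had 0.0217 and 0.0249 there. Per 1000 macrophage marker counts Il1b had 0 and 0 in LOVA, 1.11 and 0.787 in NTC, and 0.441 and 0.342 in PTC. Il1a had 0.167 and 0.456 in LOVA, 0.596 and 0.811 in NTC, and 0.441 and 0.342 in PTC on that scale. Tnfrsf1b went the other way there, at 23.2 and 27.8 in LOVA, 8.15 and 8.22 in NTC, and 32.4 and 39.3 in PTC. Per 1000 feeder marker counts NTC and PTC overlapped for Il1b (0.194 and 0.104 against 0.158 and 0.0219). They also did for Il1a (0.104 and 0.107 against 0.158 and 0.0219). Outside NTC, Il1a and Il1b had at most 3 counts per library. Whether macrophages are the source of these transcripts was not tested.

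**Figure D3:**
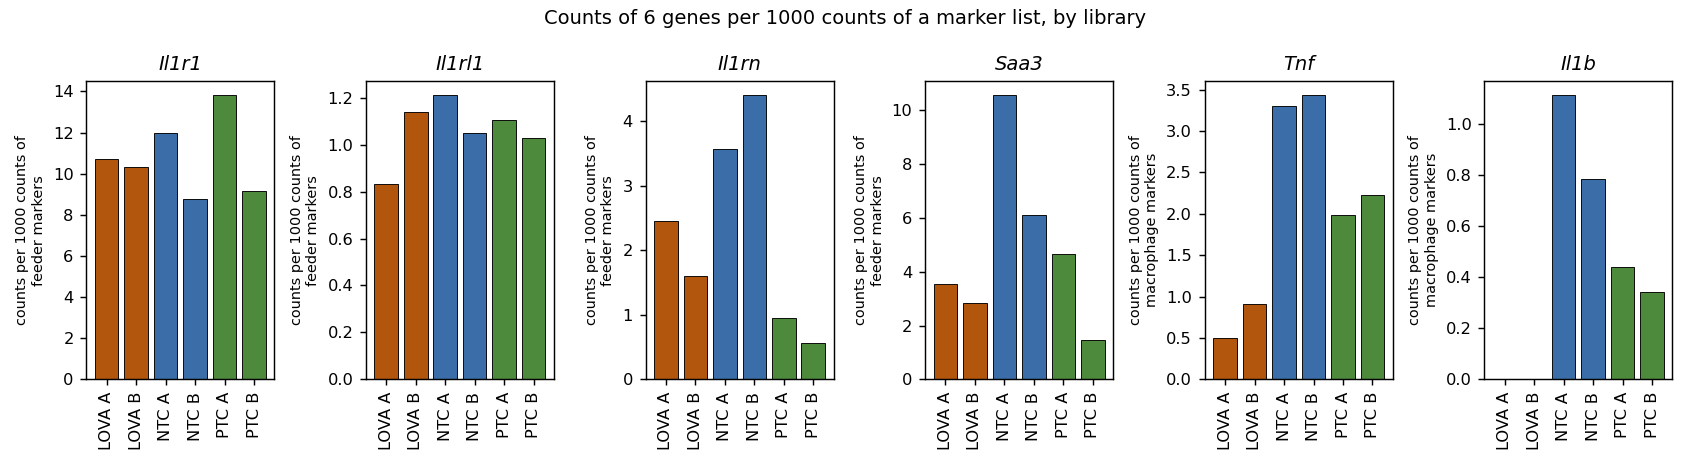
Counts of 6 genes per 1000 counts of feeder markers (Il1r1, Il1rl1, Il1rn, Saa3) or macrophage markers (Tnf, Il1b) in each library, on linear axes that differ between panels, with bars coloured by group. Il1r1 stays between 8.77 and 13.8 in all 6 libraries, while Tnf is at most 0.913 in LOVA against at least 3.30 in NTC. The LOVA bars of Tnf rest on 3 and 6 counts. Il1b had 0 and 0 counts in LOVA and 2 and 2 in PTC. Tnf and Il1b entered the test only through the NTC libraries.

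Other genes of the same pathways were taken from 8 lists of 92 genes, of which 75 were tested. In NTC against PTC 43 of the 75 rose and 1 fell, where 21.5% of all genes tested were called higher and 12.9% lower, with a median log2 fold change of 1.46 against -0.02 over all genes. In LOVA against PTC 37 rose and 0 fell, where 19.8% of all genes were called higher and 10.8% lower, with a median of 1.16 (0.00 over all genes). In LOVA against NTC edgeR called 0 of the 75, of which 5 had an unadjusted p under 0.05, and the median was -0.12. Without NTC B, 0 of the 75 were called in NTC against PTC, and without PTC A 19. In LOVA against PTC 8 were called without LOVA B and 11 without PTC A. Under scaling to pan-germ-cell counts 46 rose and 0 fell in NTC against PTC, and 44 rose and 0 fell in LOVA against PTC, while 4955 and 4103 of the 16121 genes were called higher. The counts per list below stand against the same shares of all genes. Genes that passed the filter only through 1 group, such as Casp1, were not left out of them.

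Of the acute-phase proteins, the class to which SAA3 belongs, 5 of 12 were expressed enough to be tested, and all 5 rose in NTC and in LOVA against PTC. The protease inhibitor Serpina3n was at 393 and 667 CPM in LOVA, 682 and 1017 CPM in NTC, and 15.9 and 57.1 CPM in PTC (log2 fold change of NTC minus PTC 4.54, SE 0.67, adjusted p = 0.0104). The iron-binding lipocalin Lcn2 rose by 4.39 and the haemoglobin-binding Hp by 3.86 in NTC against PTC. In LOVA minus NTC all 5 values were negative, with a median of -0.68, and none was called.

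Among 11 tested receptors and adaptors of the IL-1 family, 6 rose in NTC and 6 in LOVA against PTC, and 0 fell. The IL-36 receptor Il1rl2 (2.91 in NTC and 3.16 in LOVA against PTC) and the inhibitory kinase Irak3 (2.81 in NTC and 2.78 in LOVA) were called in both comparisons, and Irak3 was at 17.6 and 26.4 CPM in LOVA against 18.3 and 26.4 CPM in NTC. Traf6, a ubiquitin ligase downstream of IL-1 receptors, rose by 2.06 in NTC. Other IL-1 family ligands were scarce: Il1f6, the gene of IL-36α, had 0 counts in every library and Il1f8, that of IL-36β, at most 2. Il18bp, which binds and blocks IL-18, was the 1 gene of the lists that fell in NTC against PTC (-1.08, SE 0.33, adjusted p = 0.0442), a call that was lost under scaling to pan-germ-cell counts.

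The inflammasome cuts pro-IL-1β into its active form. Of its 7 tested genes 4 rose in NTC against PTC (21.5% of all genes), and 1 rose in LOVA against PTC, no more than the 19.8% of all genes called there. Casp1, the protease that makes the cut, was at 0.641 and 0.602 CPM in LOVA, 2.07 and 2.84 CPM in NTC, and 0.439 and 0.170 CPM in PTC, a rise of 3.04 in NTC against PTC (SE 0.67, adjusted p = 0.0193). Casp1 passed the filter only through the NTC libraries, so the height of NTC over the other groups was fixed for it, also in the count of 4. The sensor Nlrp3 was at 0.641 and 0.774 CPM in LOVA, 3.11 and 3.03 CPM in NTC, and 0.502 and 0.852 CPM in PTC. In both genes the LOVA libraries were far below those of NTC, which for Casp1 follows from the filter. They were close to those of PTC, and the difference from NTC was not called. Casp4, of the non-canonical inflammasome, rose in NTC (3.39) and in LOVA (3.40) against PTC.

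Of 14 tested genes of the TNF pathway 8 rose in NTC and 8 in LOVA against PTC. The other TNF receptor gene, Tnfrsf1a, was at 143 and 218 CPM in LOVA, 147 and 204 CPM in NTC, and 15.99 and 36.6 CPM in PTC, where LOVA minus NTC was 0.04 (SE 0.41, adjusted p = 1). Tnfaip3, an inhibitor that TNF induces, rose by 2.85 in NTC against PTC and stood at 30.1 and 62.6 CPM in LOVA, 82.9 and 77.0 CPM in NTC, and 7.40 and 14.6 CPM in PTC. Of 13 tested NF-kB factors and inhibitors 8 rose in NTC and 8 in LOVA against PTC, led by the inhibitor Nfkbia, at 79.8 and 146 CPM in LOVA, 174 and 176 CPM in NTC, and 19.8 and 28.6 CPM in PTC. LOVA minus NTC for Nfkbia was -0.63 (SE 0.31, adjusted p = 1).

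Of 14 tested genes of the IL-6 family pathway 5 rose in NTC (21.5% of all genes) and 5 in LOVA (19.8% of all genes) against PTC, and 9 were not called in each comparison. They included the oncostatin M receptor Osmr (3.29 in NTC and 3.45 in LOVA) and Lif (2.47 in NTC and 2.16 in LOVA), the cytokine that was also added to every medium. Stat3, the transcription factor below these receptors, was at 326 and 375 CPM in LOVA, 281 and 363 CPM in NTC, and 418 and 501 CPM in PTC. Of 9 tested toll-like receptor genes 7 rose in NTC and 4 in LOVA against PTC, among them Tlr2 (3.84 in NTC and also called in LOVA) and Tlr4 (3.56 in NTC and 3.47 in LOVA).

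**Figure D4:**
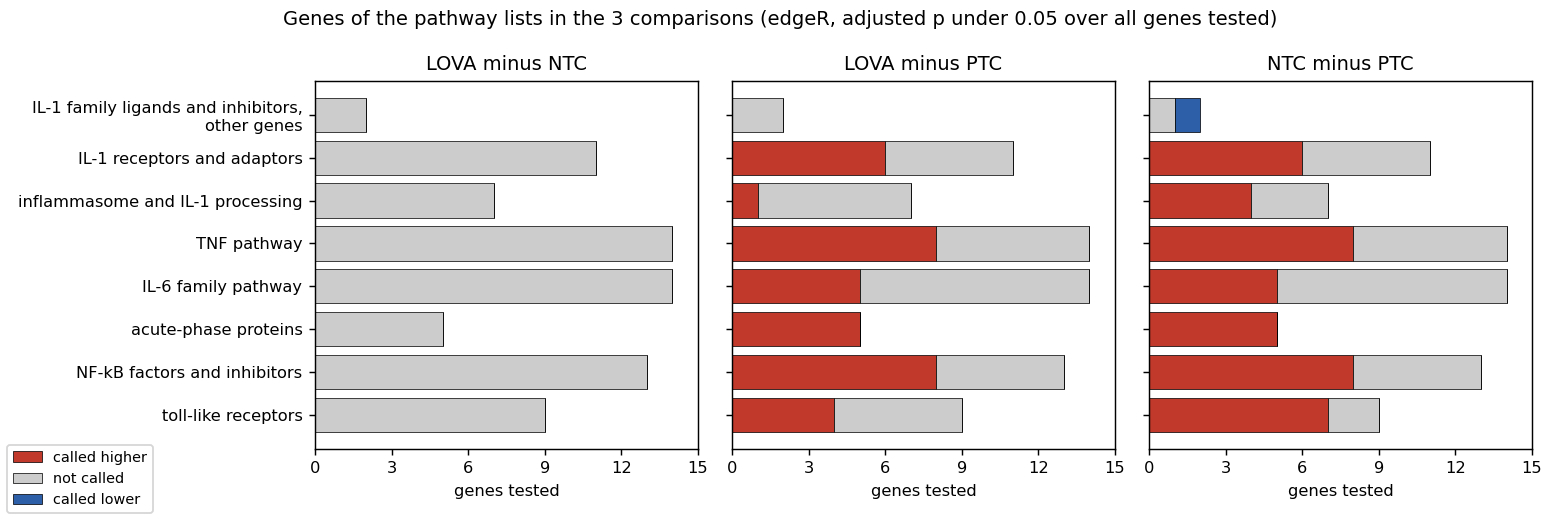
Number of tested genes in each of the 8 pathway lists that were called higher, not called or called lower in the 3 comparisons (edgeR, adjusted p under 0.05 over all genes tested). No bar has a called gene in LOVA minus NTC, and the acute-phase list is called whole, 5 of 5, against PTC in both other comparisons. Of all genes tested, 21.5% (NTC) and 19.8% (LOVA) were called higher against PTC.

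The genes most like a member were taken as those with the smallest root mean square distance between centred log2 CPM profiles over the 6 libraries, among 11376 genes. Il33 and Saa3 were among each other's nearest (distance 0.21), with Rarres2, the gene of the chemoattractant chemerin, next to both (0.18 and 0.23). The nearest to Il1rn were the protease gene Mmp3, the osteopontin gene Spp1 and the complement gene C7 (0.24 to 0.25). Il1r1 was closest to App, the amyloid precursor gene (0.06), Lrrk2 and Bhlhe40, and Il1rl1 to Plpp3, Pcdhga7 and Pkia (0.13 to 0.15). Tnfrsf1b was closest to Elmo1, an adaptor of phagocytosis (0.06), Gpr137b and Gas2. Among the members themselves Il1r1 and Il1rl1 lay 0.21 apart and Tnf and Il1b 0.34 apart, against 1.97 between Il1r1 and Il1b. Tnf and Il1b both passed the filter only through the NTC libraries, which fixed for both that NTC stood highest. Distances to Il1b depend on the prior count of 2 that stands in for its missing LOVA counts.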

How the data were processed

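Gene expression was measured by paired-end, strand-specific RNA sequencing. The deposited values are raw counts per Ensembl gene, whole numbers that the authors did not normalize. The submitters' processing notes name Trimmomatic, Bowtie2, RSEM, DESeq2 and mm10, without roles or versions, so whether the counts are rounded estimates is not given in the sources used here. Symbols came from GENCODE M21 and matched 31363 of 31384 identifiers. Columns carry a group name and a letter, A or B, which nothing ties to the replicate numbers of the labels.

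A model with a coefficient for each of the 3 groups was fitted to the 6 libraries in edgeR 4.0.16 (R 4.3.3), using TMM scaling and the legacy form of the quasi-likelihood test, with robust options on. The filterByExpr filter (10 counts at the median library total, or 0.697 CPM, in at least 2 libraries) left 16121 genes. The 3 contrasts were tested with Benjamini-Hochberg adjustment over all genes and a threshold of 0.05. Residual degrees of freedom were 3 and the common biological coefficient of variation 0.26. SE of log2 fold changes come from the fit. Floors cover counting error only. Alternatives included DESeq2 1.42.0 and limma-voom (limma 3.58.1). On simulated counts for 16121 genes with 200 changed, genes changed 4-fold were recovered at 77% in LOVA minus NTC, 90% in LOVA minus PTC and 82% in NTC minus PTC, and genes changed 2-fold at 20%, 24% and 20%. These counts gave each gene the spread typical of its level, with no spread of its own and no difference between A and B libraries. Genes of low mean, such as Il1a and Il1b, were not among those changed. The shares thus do not tell which changes the fit missed in the data.

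The members, lists and rules were chosen with earlier results of these data known. Named genes were the 10 members, up to 3 called genes per pathway list, direction and contrast or the most abundant where none was called, and the 3 nearest profiles to each member with a mean of at least 5 CPM. Pathway genes shown beyond their own contrast are given for the values of all groups, and counts of genes in a list that were at or near 0 were added after their values were seen. In 4 genes of the lists RefSeq synonyms gave the symbol used by the table.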

Additional observations from a re-analysis of the deposited data

How the results depend on the processing

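The alternatives were RLE size factors, scaling to pan-germ-cell genes, no filter on low counts, DESeq2, limma-voom, the default quasi-likelihood form, a fit of only the 2 groups compared, a replicate block by column letter, and each library left out. Those for counts of pathway genes were chosen after seeing the data. In LOVA minus NTC, 0 genes and 0 members were called in the fit of the report. No filter called 191 genes, 4 members and 2 pathway genes, DESeq2 108 genes and 3 members, limma-voom 10 genes, the default form 12 genes, and the replicate block 90 genes and 2 members (Tnf, adjusted p = 0.00512, and Saa3, 0.0089). With a library left out, 0 to 2 genes, 0 to 0 members and 0 to 0 pathway genes were called. In LOVA minus PTC the fit of only the 2 groups called 3215 genes and the replicate block 7746, against 4939, and leaving out a library gave 758 to 6754 genes, 2 to 5 members and 8 to 41 pathway genes. In NTC minus PTC leaving out a library gave 1 to 6726 genes, 0 to 9 members and 0 to 45 pathway genes, against 5558, 10 and 44.

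The letters are shared by all groups, but nothing says that they mark a shared culture, so the block is given here only. It also called Il6 higher in LOVA minus PTC (adjusted p = 0.0188). Deviations of the A libraries from their group means correlated over genes with r = 0.366 between LOVA and NTC, 0.293 between LOVA and PTC and 0.247 between NTC and PTC.

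Signs turned only in differences that were not called. For Il1r1 in LOVA minus NTC the value was -0.0143 with no filter, -0.08 by limma-voom and -0.0948 with the replicate block, and -0.59 to 0.43 with a library left out. For Il1rl1 there the range with a library left out was -1.11 to 0.41. In LOVA minus PTC Tnf turned to 0.28 with scaling to the pan-germ-cell genes and Il1a ranged from -0.49 to 1.26 with a library left out. Over members and alternatives, 26 calls were lost in NTC minus PTC and 9 in LOVA minus PTC. The causes were not tested. Counts of Il1a, Il1b and Tnf outside NTC lie near the floor, which limits what depth can show there.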
